A study of Mus musculus with 28 samples.

Results

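Livers of mice that lack Aag, the DNA glycosylase that starts the removal of alkylated bases such as 3-methyladenine, were compared at 2 collection times after exposure to methyl methanesulfonate (MMS), an alkylating agent that methylates DNA. The arrays were chosen by their sample titles: 4 arrays of Aag null liver at 24 h and 3 at 48 h, which makes 7 of the 28 arrays of the series. All 7 carry the same genotype and the same agent, and they differ by label in the hours since MMS. Wild-type (WT) liver at the same times, with 2 arrays at each, served as the comparison. The other arrays of the series also enter the statistical fit that sets the spread. They are untreated liver of both genotypes and MMS-treated liver of both genotypes at 6 and 12 h. The labels give no dose, route, strain, age, sex or hour of dosing, and nothing in them says that replicates came from different mice. The p-values therefore speak of the spread among these samples, which may be technical. Total liver RNA was hybridized to Affymetrix mouse arrays, and values are log2 signals, 1 unit being a doubling. In whole liver, fewer cells of a type and less RNA per cell cannot be told apart.

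MMS adds methyl groups to DNA bases, and base excision repair removes many of them in steps that begin with a glycosylase, pass through an abasic site and a strand break, and end with resynthesis. The liver is made up largely of hepatocytes, which hold the enzymes of amino acid breakdown, lipoprotein export, detoxification and glucose output, and many of these transcripts follow feeding, hormones and the time of day. Samples taken a whole number of days apart fall at the same clock time if the animals were dosed at the same hour.

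The targeted gene, Mpg, which encodes Aag, gave a dim signal at both times. Its log2 signal was 2.36, 2.27, 2.60 and 2.38 in 24 h replicates 1 to 4, and 2.31, 2.35 and 2.49 in 48 h replicates 1 to 3. WT liver read 2.68 and 2.63 at 24 h and 2.53 and 2.87 at 48 h, so a single Aag array at 24 h lay above the lowest of these WT values. Mpg was below the brightness filter, and the labels do not place its probes inside or outside the disrupted stretch of Mpg.

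The 24 h group held arrays of more than 1 kind. Cyp2b9, a cytochrome P450 of female mouse liver, read 7.73 and 8.22 in 24 h replicates 1 and 2 but 3.65 and 3.27 in replicates 3 and 4, and 3.78, 3.30 and 3.56 at 48 h. Hsd3b5, a steroid dehydrogenase of male liver, ran the other way, at 3.50 and 2.94 in replicates 1 and 2 against 7.29 and 7.56 in replicates 3 and 4, and 8.08, 8.35 and 7.87 at 48 h. The Y-linked Eif2s3y read 2.53 and 2.47 in replicates 1 and 2, against 3.83 to 3.85 in replicates 3 and 4 and 3.66 to 3.85 at 48 h. In these genes 24 h replicates 1 and 2 therefore showed a female-typical pattern and the other 5 arrays a male-typical one, and where leaving those 2 arrays out moved a difference by about 1.5 times or more, both values are given. Over 8251 genes, the 24 h arrays correlated with each other at 0.9875 to 0.9957 and the 48 h arrays at 0.9920 to 0.9947. The added hybridization controls averaged 8.21 to 8.49 at 24 h and 8.11 to 8.29 at 48 h, and the 3′ minus 5′ difference of the Gapdh control probe sets was -0.18 to 0.00 at 24 h and -0.23 to -0.17 at 48 h. In WT the hybridization controls averaged 8.486 and 8.398 at 24 h but 7.545 and 7.189 at 48 h. The WT times thus differed in this measure, and its part in the WT and genotype differences was not tested.

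Between 24 h and 48 h, 14 genes fell and 2 rose in Aag null liver. The genes that fell encode enzymes of amino acid and creatine metabolism (Hgd, Prodh2, Gamt), lipoprotein and hormone receptor functions (Apoc1, Lsr, Gcgr), mitochondrial and peroxisomal proteins (Atp5e, Hint2, Pex6), an immunoproteasome subunit (Psmb9) and others (Slc39a1, Hpn, Tns2, Rex1bd). The genes that rose were Grhpr, which reduces glyoxylate and hydroxypyruvate, and Akr1c13, an aldo-keto reductase. Falls ran from -0.81 to -0.56 on the log2 scale and rises from 0.56 to 0.72. These 16 genes are 0.292% of the 5487 tested, with 0.255% lower and 0.0364% higher, in a limma fit of all 28 arrays with a threshold of 0.05 on adjusted p. At an unadjusted p under 0.05 there were 490 genes. The median difference of all genes tested was 0.01.

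How many genes passed depended on the arrays that set the spread. With the 7 arrays fitted alone, 512 genes passed (9.33%), with 207 higher (3.77%) and 305 lower (5.56%), and these included the 16. The median residual standard deviation was 0.0999 in that fit and 0.205 over all 28 arrays. With the 21 treated arrays alone it was 0.181, and 101 genes passed. The hybridization controls averaged 8.17, 8.09, 10.25 and 10.63 in untreated Aag null replicates 1 to 4. They averaged 11.48, 11.65 and 10.87 in untreated WT replicates 1 to 3. The part of the untreated arrays in the spread was not tested further. Leaving out 24 h replicates 1 and 2 gave 146 genes among the remaining 5 arrays alone (2.66%), with 36 higher (0.656%) and 110 lower (2%). The series held 3 arrays taken as female-typical, namely 24 h replicates 1 and 2 and untreated Aag null replicate 3. In the fit of all arrays without those 3, 0 genes passed, and limma gave 265 genes at an unadjusted p under 0.05. In the fit of all 28 arrays the 16 calls were thus few and close to the threshold. Leaving out any 1 of 24 h replicates 1, 2 and 3 or 48 h replicates 2 and 3 left 0 genes past it. In the same fit 7 passed without 24 h replicate 4 and 10 without 48 h replicate 1. Each of the 16 kept its sign in every one of these fits.

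Psmb9, a catalytic subunit of the immunoproteasome, the proteasome form that trims peptides for MHC class I, had the smallest p. It read 5.37, 5.45, 5.51 and 5.33 in 24 h replicates 1 to 4, and 4.88, 4.73 and 4.74 at 48 h. All 48 h arrays lay below all 24 h arrays, and 24 h replicates 1 and 2 were not set apart from 3 and 4. The fall was 0.63 (SE 0.11, limma adjusted p = 0.0298), from 5.41 ± 0.08 (SD, n = 4) to 4.78 ± 0.08 (SD, n = 3), or 1.55-fold. Without 24 h replicates 1 and 2 the difference was -0.64.

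Rex1bd, a little-described gene, was as tight. Its 24 h values were 5.82, 5.98, 5.91 and 5.96 and its 48 h values 5.16, 5.23 and 5.17, a fall of 0.73 (SE 0.13, limma adjusted p = 0.0298). The arrays within each time lay close together and the times did not overlap.

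Among mitochondrial and peroxisomal proteins, Atp5e, the epsilon subunit of ATP synthase, read 7.82, 7.56, 7.84 and 7.79 at 24 h and 7.05, 7.0 and 6.84 at 48 h. It fell by 0.79 (SE 0.16, limma adjusted p = 0.0332), or 1.73-fold, and by 0.86 without 24 h replicates 1 and 2. Even 24 h replicate 2, the lowest of its group, stood clear of the 48 h arrays. Hint2, a mitochondrial nucleotide hydrolase, went from 7.82, 7.61, 7.63 and 7.63 to 6.97, 7.13 and 7.02, a fall of 0.64 (SE 0.12, limma adjusted p = 0.0332). Pex6, an ATPase that recycles the peroxisomal import receptor, went from 7.01, 6.95, 6.79 and 6.90 to 6.45, 5.84 and 6.17. Its 48 h arrays were spread over more than its 24 h arrays, with replicate 2 the lowest, and its fall was 0.76 (SE 0.15, limma adjusted p = 0.0332).

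Of the enzymes of amino acid and creatine metabolism, Hgd, homogentisate dioxygenase of tyrosine breakdown, read 9.01, 9.18, 8.90 and 8.70 at 24 h and 8.29, 8.17 and 8.27 at 48 h. It fell by 0.71 (SE 0.14, limma adjusted p = 0.0332), and by 0.56 without 24 h replicates 1 and 2, which were its highest arrays. Prodh2, which oxidizes hydroxyproline, went from 8.22, 8.32, 8.11 and 8.09 to 7.76, 7.38 and 7.52, a fall of 0.63 (SE 0.13). Gamt, which methylates guanidinoacetate to creatine, went from 8.30, 8.37, 8.25 and 8.21 to 7.91, 7.56 and 7.67, a fall of 0.57 (SE 0.12). In both genes the 48 h arrays were all lower, replicate 2 most so, and both had a limma adjusted p of 0.0332.

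Among receptors and lipoprotein genes, Lsr, a hepatic lipoprotein receptor, had the largest fall of the 14, at 0.81 (SE 0.18, limma adjusted p = 0.0493). It read 7.83, 7.97, 7.57 and 7.60 at 24 h and 6.94, 6.83 and 7.04 at 48 h, so 24 h replicates 1 and 2 were the highest, and without them the difference was -0.65. Apoc1, a small apolipoprotein of very bright signal, went from 11.14, 11.04, 10.83 and 10.94 to 10.58, 10.26 and 10.20 and fell by 0.64 (SE 0.13, limma adjusted p = 0.0437). Gcgr, the glucagon receptor, read 8.14, 8.23, 8.36 and 8.44 at 24 h and 7.94, 7.52 and 7.73 at 48 h. It fell by 0.56 (SE 0.12, limma adjusted p = 0.0479), and by 0.67 without 24 h replicates 1 and 2, its lowest arrays at that time.

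The other falls were in genes of membrane and adhesion functions. Slc39a1, a zinc importer, read 5.96, 5.97, 6.00 and 5.92 at 24 h and 5.41, 5.11 and 5.30 at 48 h, a fall of 0.69 (SE 0.15, limma adjusted p = 0.0466). Hpn, the surface protease hepsin, went from 7.89, 8.02, 8.11 and 8.01 to 7.69, 6.95 and 7.38, a fall of 0.67 (SE 0.15, limma adjusted p = 0.0493). Tns2, a tensin of cell adhesion sites, went from 5.30, 5.44, 5.31 and 5.44 to 4.93, 4.49 and 4.58, a fall of 0.71 (SE 0.14, limma adjusted p = 0.0359). The 24 h arrays were close together in all of these, while the 48 h arrays differed more, and Hpn at 48 h replicate 1 came nearest to the 24 h range.

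Of the rises, Grhpr read 7.46, 7.29, 7.95 and 7.82 at 24 h and 8.37, 8.54 and 8.14 at 48 h. It rose by 0.72 (SE 0.14, limma adjusted p = 0.0332), or 1.65-fold. Its 24 h replicates 1 and 2 were the lowest, and without them the difference was 0.46. Akr1c13 read 7.80, 7.67, 7.97 and 8.09 at 24 h and 8.28, 8.56 and 8.49 at 48 h, a rise of 0.56 (SE 0.12, limma adjusted p = 0.0437) with 24 h replicates 1 and 2 again the lowest, and 0.42 without them. Of the 16 genes, 9 still passed with the 5 remaining arrays alone: Lsr, Atp5e, Rex1bd, Hgd, Tns2, Slc39a1, Hint2, Psmb9 and Gcgr, which all fell. Neither rise was among them, and the part of the female-typical pattern in the rises was not tested beyond these values.

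**Figure D1:**
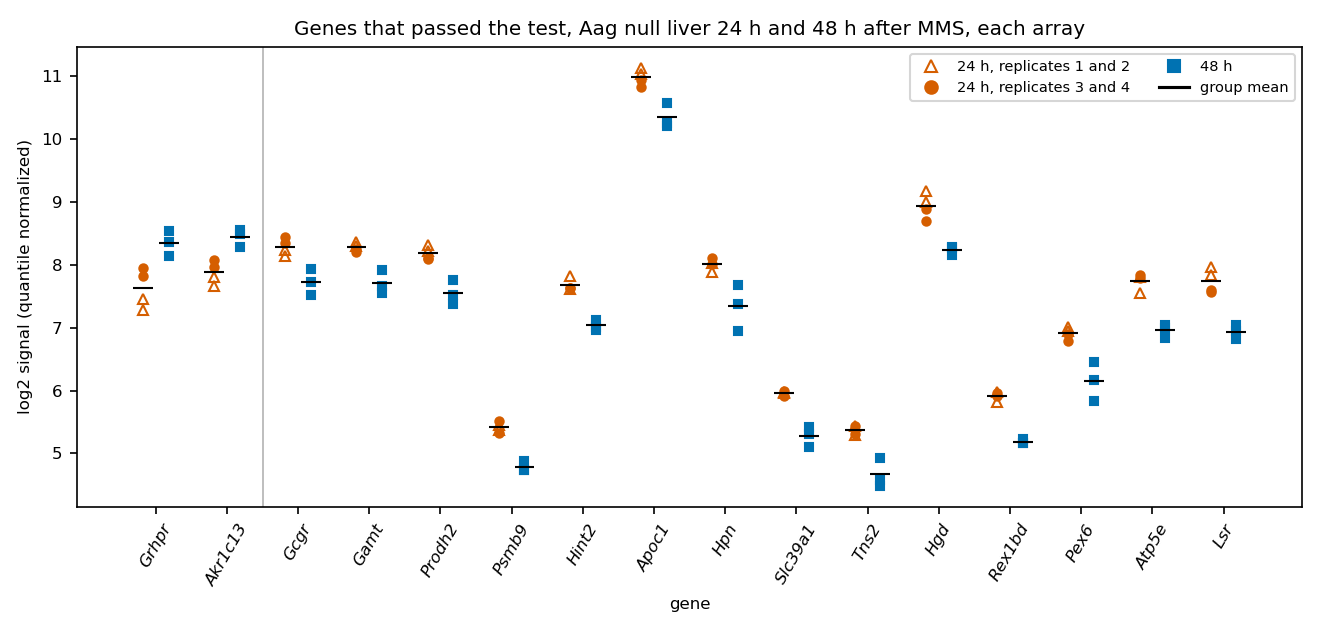
Log2 signal (vertical axis) of the 16 genes that passed the test (horizontal axis) in each Aag null array, with open triangles for 24 h replicates 1 and 2, filled circles for 24 h replicates 3 and 4, squares for 48 h and black bars for group means. The 2 genes left of the grey line rose and the 14 to its right fell, and in Grhpr the triangles sit lowest, at 7.46 and 7.29.

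The same interval in WT liver gave 1 gene past the threshold (0.0182%), Fkbp5, a glucocorticoid-responsive chaperone partner. It read 7.01 and 6.68 in WT at 24 h and 5.28 and 5.54 at 48 h, a fall of 1.43 (SE 0.24, limma adjusted p = 0.0277). It did not pass in WT with the 4 WT arrays fitted alone, nor when any 1 of WT 24 h replicates 1 and 2 and WT 48 h replicates 1 and 2 was left out. In Aag null liver Fkbp5 was 6.20, 5.87, 6.06 and 6.02 at 24 h and 5.25, 5.59 and 5.39 at 48 h, also without overlap, a difference of -0.63 (SE 0.18) with a limma adjusted p of 0.16. At 24 h the Aag arrays all lay below both WT arrays, and at 48 h the ranges overlapped. The difference between the genotypes in this change was 0.81 (SE 0.30, limma unadjusted p = 0.0142), and over all genes the test of that difference gave 0 genes past the threshold (131 at an unadjusted p under 0.05).

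The 16 genes were set beside WT, whose arrays are other samples. In WT 14 of the 16 had the same sign, and 15 had a smaller difference in size. Genes picked for a large difference in some samples tend to show a smaller one in others. The 15 therefore say nothing of genotype. The WT arrays did not overlap in the same direction for 8 of the 16, where 19.2% of all genes were lower and 11.8% higher without overlap, and for 0 in the opposite direction. Gcgr was lower in WT by 0.78 (SE 0.16), with 8.54 and 8.67 at 24 h and 7.88 and 7.77 at 48 h, and Akr1c13 was higher in WT by 0.55 (SE 0.16). In Psmb9 WT read 5.07 and 5.13 at 24 h and 4.86 and 5.24 at 48 h, a difference of -0.05 (SE 0.14), and that between the genotypes was -0.59 (SE 0.18, limma unadjusted p = 0.0036). Such an unadjusted p was under 0.05 in 7 of the 16 (Grhpr, Rex1bd, Tns2, Apoc1, Hint2, Psmb9 and Gamt). Over all 5487 genes it was under 0.05 in 131, and after adjustment in none. The Aag arrays that picked the 16 also enter this difference, so the choice alone raises their share of small p. WT differences in Tns2 and Gamt were 0.09 (SE 0.19) and 0.06 (SE 0.15), opposite in sign to the Aag falls and smaller than their errors.

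**Figure D2:**
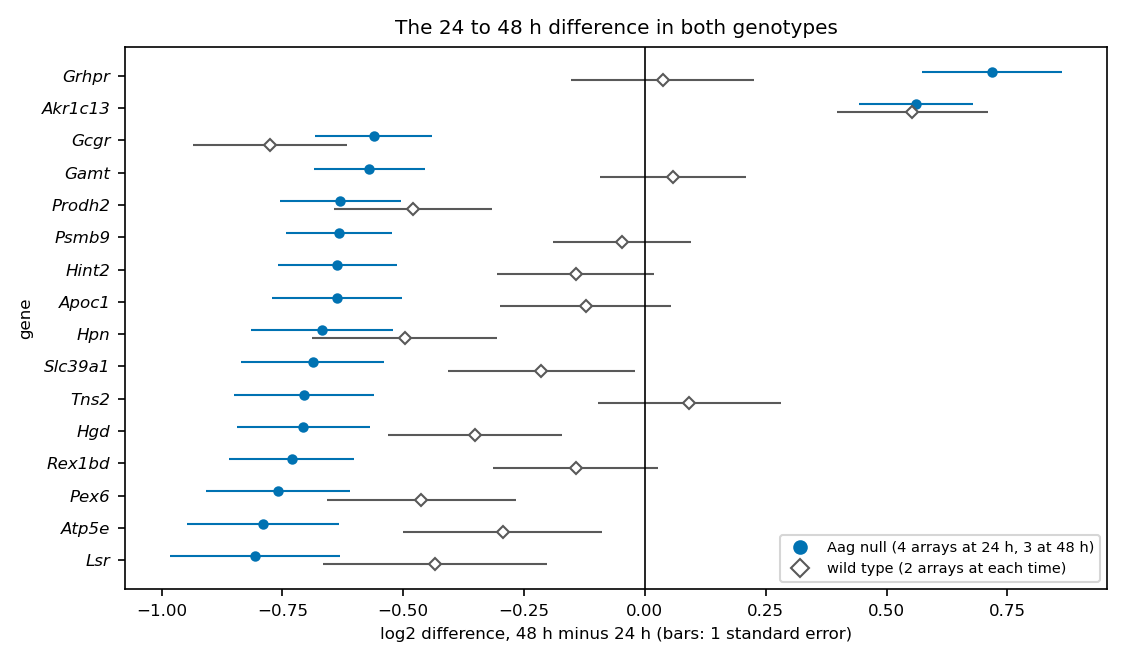
Log2 difference between 48 h and 24 h (horizontal axis, bars of 1 standard error from limma) for the 16 genes (vertical axis) in Aag null liver (filled circles) and WT liver (open diamonds). The genotypes lie together for Akr1c13 and Gcgr, and apart for Psmb9, where Aag was -0.63 and WT -0.05.

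Because only 2 rises passed, the 10 non-overlapping higher genes with the next smallest p are given as genes that missed the threshold. Serp1, a stress protein of the endoplasmic reticulum, read 7.15, 6.59, 7.44 and 7.53 at 24 h and 8.05, 8.27 and 8.0 at 48 h, a difference of 0.93 (SE 0.22, limma adjusted p = 0.0701), and 0.62 without 24 h replicates 1 and 2. Gclc, the catalytic subunit of the enzyme that limits glutathione synthesis, read 5.64, 5.71, 5.79 and 5.82 at 24 h and 6.61, 6.21 and 6.49 at 48 h, a difference of 0.69 (SE 0.18, limma adjusted p = 0.107). Its 24 h replicates 1 and 2 were the lowest by a small margin, the difference was 0.63 without them, and WT gave 0.67 (SE 0.24).

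Others of the 10 are secreted protease inhibitors or hepatic enzymes. Pzp, an abundant plasma protease inhibitor, was higher by 0.51 (SE 0.12, limma adjusted p = 0.0699) and Mug1, its relative, by 0.73 (SE 0.19). Ugt2b5, a glucuronosyltransferase, was higher by 0.72 (SE 0.18), Cyp4v3, a fatty acid hydroxylase, by 0.67 (SE 0.17), and Aadac, a lipid esterase of the endoplasmic reticulum, by 0.71 (SE 0.20). In Mug1, Ugt2b5 and Cyp4v3 the 24 h replicates 1 and 2 were the lowest arrays, and without them the differences were 0.43, 0.41 and 0.37. Mageb3, H2-M9 and Dhx32 were higher by 0.45, 0.36 and 0.40, with limma adjusted p of 0.0884, 0.115 and 0.136.

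Interferon response and immunoproteasome genes were lower at 48 h as far as they separated. Of 18 tested, 1 fell (Psmb9) and 0 rose, 8 were lower and 0 higher without overlap between the times, and the median difference was -0.21, where over all genes 12.5% were lower and 14.2% higher without overlap and the median was 0.01. Psmb8, another catalytic immunoproteasome subunit, read 5.66, 5.55, 5.67 and 5.40 at 24 h and 5.03, 5.09 and 4.69 at 48 h, a difference of -0.63 (SE 0.17, limma adjusted p = 0.136). Psmb10, the remaining one, read 7.07, 7.12, 7.01 and 6.95 and then 6.44, 6.66 and 6.75, a difference of -0.42 (SE 0.12, limma adjusted p = 0.16). Both genes were lower at 48 h in every array, though neither passed.

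H2-K1, a classical MHC class I heavy chain, differed by -0.32 (SE 0.11, limma adjusted p = 0.286), and another of its probe sets had the opposite sign. Psme1, a subunit of the proteasome activator, did not pass in the fit of all arrays (-0.50, SE 0.21, limma adjusted p = 0.424) and passed with the 7 arrays alone (limma adjusted p = 0.0133), again with another probe set of opposite sign. With those 7 arrays alone, 5 of the 18 were lower and 0 higher (5.56% and 3.77% of all genes), and without 24 h replicates 1 and 2 it was 2 and 0 (2% and 0.656% of all genes), with a median of -0.22. The WT median over the 18 genes was -0.12. The constitutive proteasome had 4 of 30 tested members higher and 2 lower without overlap (13.3% and 6.67%, beside 14.2% and 12.5% of all genes). It had 0 past the threshold and a median of 0.15 (0.06 without 24 h replicates 1 and 2).

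None of the summed markers of immune cells, which also express interferon genes, was lower at 48 h without overlap. The summed signal of 17 Kupffer cell and macrophage markers was 9.26 to 9.59 in log2 at 24 h and 9.44 to 9.60 at 48 h. That of 15 monocyte and neutrophil markers was 8.50 to 8.61 and 8.62 to 8.69, that of 20 lymphocyte markers 8.48 to 8.69 and 8.52 to 8.60, and that of 11 MHC class II and dendritic markers 9.04 to 9.15 and 9.04 to 9.16. The monocyte and neutrophil sum was higher at 48 h without overlap, with means of 8.56 and 8.66, and the others overlapped. None of these markers passed the test. Only 6 of the 15 monocyte and neutrophil markers and 9 of the 20 lymphocyte markers exceeded the array median in any array compared. For macrophage and MHC class II markers these were 15 of 17 and 10 of 11. Most monocyte and neutrophil markers were thus dim, and the small step in their sum says little of cell content. The part of immune cells in the interferon genes was not tested further.

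Enzymes of methyl group metabolism had negative differences throughout. In the methionine cycle list, 13 of 13 tested genes had a negative difference, with a median of -0.23 (0.01 over all genes). Of these 1 was called (Gamt, lower), where 0.255% of all genes were called lower. Without overlap 5 of 13 were lower (38.5%, beside 12.5% of all genes) and 0 higher (beside 14.2%). The median was -0.20 without 24 h replicates 1 and 2 and -0.33 in WT. Nnmt, which methylates nicotinamide, read 7.21, 7.58, 7.63 and 7.33 at 24 h and 6.50, 7.10 and 6.64 at 48 h, a difference of -0.69 (SE 0.19, limma adjusted p = 0.137). WT gave -0.79 (SE 0.25). Ahcy, which hydrolyses S-adenosylhomocysteine, differed by -0.35 (SE 0.12) and Dmgdh, which oxidizes dimethylglycine, by -0.36 (SE 0.13, and -0.20 without 24 h replicates 1 and 2), each lower in all 3 arrays at 48 h and neither past the threshold.

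In the breakdown of tyrosine, phenylalanine and tryptophan, Hgd fell and 0 of 9 tested genes rose. Without overlap, 4 were lower (44.4%, beside 12.5% of all genes) and 0 higher (beside 14.2%). The median was -0.18 (-0.12 without 24 h replicates 1 and 2). Hpd, the enzyme just before Hgd, differed by -0.25 (SE 0.09, limma adjusted p = 0.299) and by -0.16 without those arrays, and Pcbd1, a cofactor recycling enzyme, by -0.38 (SE 0.22). In the urea cycle 2 of 9 genes were higher and 2 lower without overlap (22.2% each, beside 14.2% and 12.5% of all genes). The urea cycle median was -0.02 (0.06 without those arrays).

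Lipid transport genes had differences in both directions. Of 18 tested, Apoc1 fell and 0 rose. Without overlap 6 were lower (33.3%, beside 12.5% of all genes) and 2 higher (11.1%, beside 14.2%). Apoa4, an apolipoprotein of liver and gut, read 6.64, 7.36, 6.48 and 6.17 at 24 h and 5.68, 5.19 and 5.90 at 48 h, a difference of -1.07 (SE 0.24) that just missed the threshold at a limma adjusted p of 0.0549. Its 24 h replicate 2 was the highest, and the difference was -0.73 without replicates 1 and 2. Apoe differed by -0.34 (SE 0.09, limma adjusted p = 0.107), with another probe set of opposite sign, and read 12.35 to 12.46 at 24 h and 11.90 to 12.23 at 48 h. Abca1, which loads cellular cholesterol onto apolipoproteins, was higher: 5.29, 5.37, 5.55 and 5.68 at 24 h and 6.47, 6.52 and 6.30 at 48 h. Its difference of 0.96 (SE 0.33, or 1.94-fold) had a limma adjusted p of 0.274 over all arrays and 0.00458 with the 7 arrays alone, and the times did not overlap.

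Cholesterol synthesis genes differed with the choice of 24 h arrays. The 18 tested genes had a median of -0.37 with all 7 arrays and -0.08 without those 2, and 0 passed. Without overlap 2 were lower and 2 higher (11.1% each, beside 12.5% and 14.2% of all genes). Dhcr7, a late enzyme of the pathway, read 4.12, 3.68, 3.44 and 3.68 at 24 h and 3.09, 2.86 and 3.12 at 48 h, a difference of -0.71 (SE 0.23, limma adjusted p = 0.22). Most of these signals were dim, beside array medians before scaling of 4.108 to 4.138 at 24 h and 4.147 to 4.165 at 48 h. Fdps, which makes farnesyl diphosphate, and Sqle, squalene epoxidase, differed by -0.81 (SE 0.28) and -0.48 (SE 0.21), with overlapping arrays.

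Respiratory chain subunits were more often lower without overlap than the genes at large, though 27 had a negative and 24 a positive difference. Of 51 tested, Atp5e fell and 0 rose. Without overlap 13 were lower (25.5%, beside 12.5% of all genes) and 7 higher (13.7%, beside 14.2%), and the median was -0.04 (-0.08 without 24 h replicates 1 and 2, 0.10 in WT). Uqcrq, a small subunit of complex III, read 10.19, 10.19, 10.26 and 10.24 at 24 h and 9.82, 9.85 and 9.78 at 48 h, a difference of -0.40 (SE 0.12, limma adjusted p = 0.164). Ndufc1, a small subunit of complex I, differed by -0.49 (SE 0.18). Uqcrc2, a core subunit of complex III, was higher instead, at 7.24, 6.81, 7.08 and 7.21 against 7.45, 7.70 and 7.48, a difference of 0.46 (SE 0.15, limma adjusted p = 0.25). With the 7 arrays alone, 8 of the 51 were lower and 2 higher, where 5.56% and 3.77% of all genes were. Without 24 h replicates 1 and 2 these were 7 and 0, where 2% and 0.656% of all genes were.

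Ribosomal protein genes gave 0 calls among 26 tested, with a median of -0.01 (-0.06 without 24 h replicates 1 and 2). Without overlap 6 were lower (23.1%, beside 12.5% of all genes) and 2 higher (7.69%, beside 14.2%). Rpl41 read 10.99, 11.19, 11.33 and 11.19 at 24 h and 10.74, 10.67 and 10.78 at 48 h, a difference of -0.45 (SE 0.13, limma adjusted p = 0.176). In WT it was higher at 48 h by 0.35 (SE 0.18). Rps18 differed by -0.39 (SE 0.12) in Aag null liver, lower in every 48 h array.

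**Figure D3:**
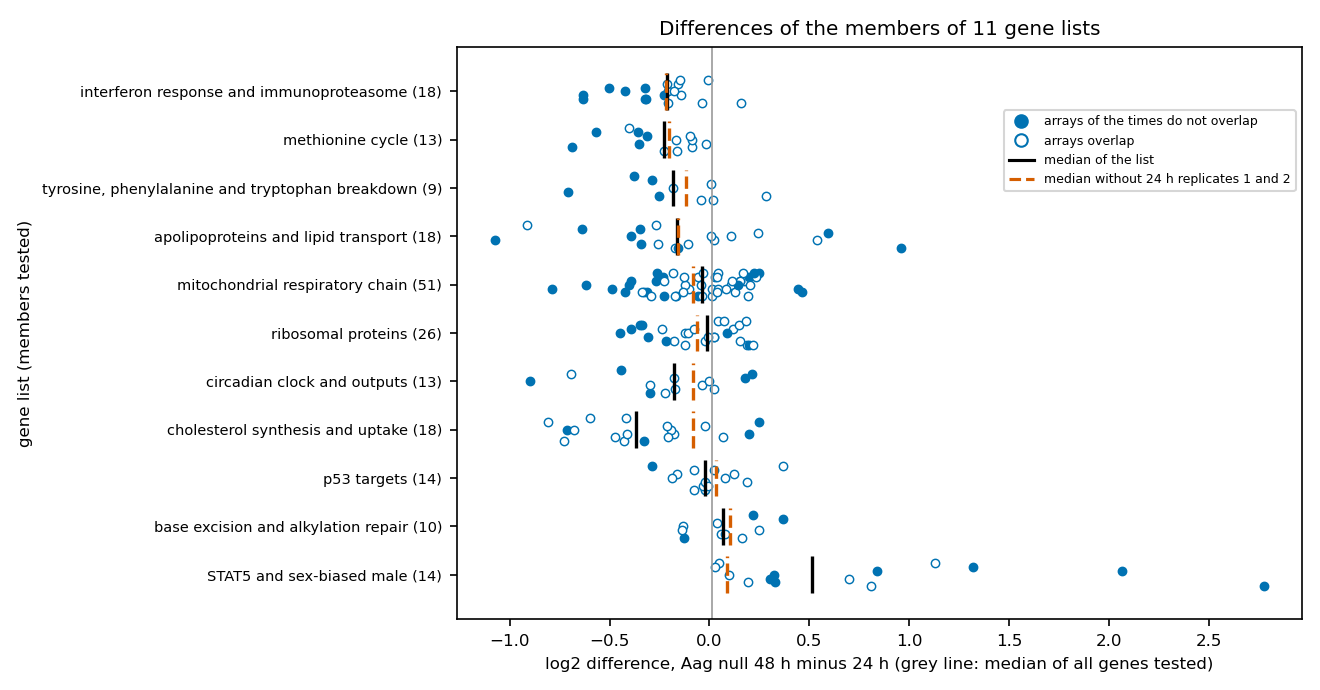
Log2 difference between Aag null 48 h and 24 h (horizontal axis) of each tested member of 11 gene lists (vertical axis, members tested in brackets), filled where the arrays of the times do not overlap. Black bars are list medians, dashed bars the medians without 24 h replicates 1 and 2, and the grey line the median of all genes (0.01); the bars stand apart for the male-biased list (0.51 and 0.09) and for cholesterol synthesis (-0.37 and -0.08).

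Some of the largest differences belonged to transcription factors and clock outputs with wide spread over the series. Cebpb, a transcription factor of the acute phase and of liver growth, read 6.13, 5.92, 6.22 and 6.38 at 24 h and 4.33, 4.78 and 4.83 at 48 h. Every 48 h array was more than 1 log2 unit below every 24 h array, a difference of -1.52 (SE 0.37, 2.86-fold lower) with a limma adjusted p of 0.0813 over all arrays and 0.00277 with the 7 arrays alone. In WT it read 6.59 and 5.87 and then 5.12 and 5.31. Ier2, an immediate early gene, read 4.63, 4.19, 4.39 and 4.38 and then 3.67, 3.44 and 3.73, a difference of -0.78 (SE 0.27, limma adjusted p = 0.269). Of 15 immediate early genes tested, 0 passed. Without overlap 1 was lower (6.67%, beside 12.5% of all genes) and 0 higher (beside 14.2%).

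Usp2, a ubiquitin protease whose transcript follows the clock, read 6.99, 6.71, 7.08 and 7.13 at 24 h and 6.05, 6.01 and 6.17 at 48 h. Its difference was -0.90 (SE 0.27), with a limma adjusted p of 0.162 over all arrays and 0.00498 with the 7 arrays alone. Per1, a repressor of the clock loop, differed by -0.30 (SE 0.12) and Dbp, a clock-controlled transcription factor, by -0.44 (SE 0.48), both lower in every 48 h array. Dbp was 5.93, 5.80, 5.88 and 5.79 and then 5.48, 5.34 and 5.40, a small step beside the standard error that the whole series gave it. Of 13 clock genes tested 0 passed over all arrays. Without overlap 3 were lower (23.1%, beside 12.5% of all genes) and 2 higher (15.4%, beside 14.2%). The median was -0.18 (-0.08 without 24 h replicates 1 and 2, 0.01 in WT). The labels do not give the hours of dosing, and their part was not tested.

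**Figure D4:**
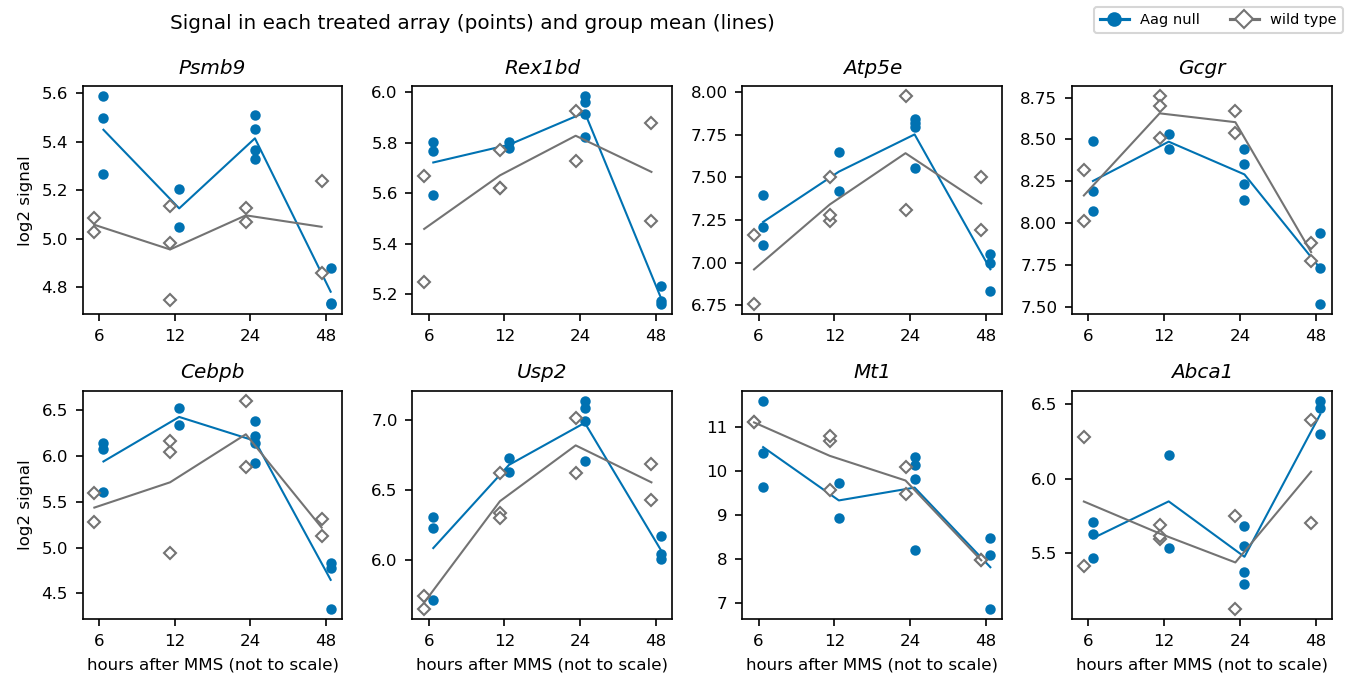
Log2 signal (vertical axis) in each treated array at 6, 12, 24 and 48 h after MMS (horizontal axis, evenly spaced and not to scale) for 8 genes, with Aag null arrays as filled circles, WT arrays as open diamonds and lines through the group means. Aag null Atp5e goes from a mean of 7.75 at 24 h to 6.96 at 48 h and Cebpb from 6.16 to 4.65, while Abca1 goes from 5.47 to 6.43.

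Over the treated arrays of Aag null liver, the 24 h group was the highest of the 4 times for some of these genes. Group means of Atp5e were 7.24, 7.53, 7.75 and 6.96 in time order, and those of Usp2 were 6.09, 6.68, 6.98 and 6.08. For Rex1bd they were 5.72, 5.79, 5.92 and 5.19. The 48 h mean of Usp2 thus lay by the 6 h mean, whereas Rex1bd and Atp5e at 48 h lay below all earlier means. Psmb9 went 5.45, 5.13, 5.41 and 4.78, with 48 h lowest, and Mt1 went 10.54, 9.33, 9.62 and 7.82. These time courses are descriptions with 2 to 4 arrays a time.

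Metallothioneins, small proteins that bind zinc and other metals and are induced by metals, glucocorticoids and oxidants, had large differences and large errors. Mt1 read 10.12, 10.32, 9.82 and 8.21 at 24 h and 8.49, 8.08 and 6.87 at 48 h, and Mt2 read 9.28, 9.48, 8.85 and 7.15 and then 7.46, 6.97 and 6.45. In both genes 24 h replicate 4 fell inside the 48 h range, so the times overlapped. The differences were -1.80 (SE 0.57, limma adjusted p = 0.202) and -1.73 (SE 0.59, limma adjusted p = 0.264), and without 24 h replicates 1 and 2 they were -1.20 and -1.04. In WT, with 9.48 and 10.08 and then 7.97 and 7.97 for Mt1, and 9.09 and 9.19 and then 6.77 and 7.05 for Mt2, they were -1.81 (SE 0.75) and -2.23 (SE 0.78), without overlap. The genotypes differed by 0.00 (SE 0.94) for Mt1, with all arrays, an interval too wide to say that they act alike.

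The upstream sequences of this pair are shown because the genes lie side by side on mouse chromosome 8 and ranked their 24 h arrays in the same order. The 250 bases before the RefSeq transcript start (build GRCm38.p6, plus strand) are chr8:94178839-94179088 for Mt1 and chr8:94172368-94172617 for Mt2. Capitals mark the core of the metal response element, bound by the zinc-sensing factor MTF1, searched as TGCACNC and TGCGCNC on both strands, with N any base.
Mt1: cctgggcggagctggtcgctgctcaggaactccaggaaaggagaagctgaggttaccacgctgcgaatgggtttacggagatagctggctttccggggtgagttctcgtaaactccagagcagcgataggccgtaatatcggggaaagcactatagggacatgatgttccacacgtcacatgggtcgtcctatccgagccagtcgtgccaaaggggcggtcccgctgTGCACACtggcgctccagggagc
Mt2: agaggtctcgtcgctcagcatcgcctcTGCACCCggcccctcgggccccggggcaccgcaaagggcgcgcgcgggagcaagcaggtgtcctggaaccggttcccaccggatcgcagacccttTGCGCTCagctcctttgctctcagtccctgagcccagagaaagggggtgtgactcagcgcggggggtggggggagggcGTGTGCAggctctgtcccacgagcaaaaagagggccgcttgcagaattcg
Mt1 holds 1 match and Mt2 holds 3, of which 1 is on the minus strand. Such a core stood in 21.4% of 32851 mouse windows of this length, so a match is a description of the letters and not a site.

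DNA damage and repair genes gave no call between the times. Of 14 p53 targets tested 0 passed, and the median was -0.02 (0.03 without 24 h replicates 1 and 2). Without overlap 1 was lower (7.14%, beside 12.5% of all genes) and 0 higher (beside 14.2%). Cdkn1a, the cell cycle inhibitor most used as a p53 readout, was 6.29, 6.52, 6.33 and 6.27 at 24 h and 6.39, 6.22 and 6.38 at 48 h. Mdm2, the p53 ubiquitin ligase, was 3.94 to 4.05 at 24 h and 3.94 to 4.02 at 48 h. That is a dim signal, as the array medians before scaling were 4.108 to 4.138 at 24 h and 4.147 to 4.165 at 48 h. Its lack of a difference therefore says little. The differences were -0.02 (SE 0.16) and -0.03 (SE 0.17), and 0.03 and -0.02 without 24 h replicates 1 and 2. Ephx1, Zmat3, Perp and Ddit4, the members with the smallest p, differed by 0.37, 0.19, -0.29 and -0.19 with limma adjusted p of 0.51 to 0.967. Without 24 h replicates 1 and 2, Ephx1 was 0.23 and Zmat3 0.11. Ddit4 was dim at both times (3.58 to 3.78 and 3.28 to 3.68) and Zmat3 at 24 h (3.86 to 4.02).

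Among 10 genes of base excision and alkylation repair 0 passed, and the median was 0.07 (0.10 without 24 h replicates 1 and 2). Without overlap 2 were higher (20%, beside 14.2% of all genes) and 1 lower (10%, beside 12.5%). Ung, the uracil glycosylase, read 6.22, 6.42, 6.51 and 6.38 and then 6.76, 6.76 and 6.73, a difference of 0.37 (SE 0.24, limma adjusted p = 0.818, and 0.0243 with the 7 arrays alone). Ogg1, the 8-oxoguanine glycosylase, differed by 0.22 (SE 0.13), higher in every 48 h array. Of 16 other repair genes 0 passed. Without overlap 3 were higher (18.8%, beside 14.2% of all genes) and 0 lower (beside 12.5%). Among the 3 was Rev3l, the catalytic subunit of a translesion polymerase (0.39, SE 0.16). Rad23b, which helps recognise damage in nucleotide excision repair, was another (0.27, SE 0.12). Mgmt, the direct methyl transferase, was below the brightness filter at 3.45 to 3.59 and 3.38 to 3.60.

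Replication and mitosis genes also gave 0 calls, among 17 tested in each list. Of the replication genes 1 was higher and 2 lower without overlap, around a median of 0.01. Of the mitosis and cyclin genes 6 were higher (35.3%, beside 14.2% of all genes) and 2 lower (11.8%, beside 12.5%), 13 of 17 had a positive difference, and the median was 0.12 (0.08 without 24 h replicates 1 and 2). Cdt1, a licensing factor, was higher by 0.25 (SE 0.09), and Cenpa, the centromeric histone, by 0.27 (SE 0.11). Tk1, thymidine kinase, differed by -0.40 (SE 0.17, and -0.24 without those arrays) and Cks2, a cyclin-dependent kinase subunit, by -0.51 (SE 0.24). The 4 genes did not overlap between the times, and their limma adjusted p ran from 0.304 to 0.518.

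Other stress and metabolic lists held no call in the fit of all arrays. Of 27 NRF2 targets, 7 were higher (25.9%, beside 14.2% of all genes) and 2 lower (7.41%, beside 12.5%) without overlap, with Gclc leading. Abcc2, an export pump for conjugates, was higher by 0.48 (SE 0.15) and Mgst1, a membrane glutathione transferase, by 0.49 (SE 0.19), while Gsr, glutathione reductase, differed by -0.31 (SE 0.11). Of 21 genes of the unfolded protein response, 4 were higher (19%, beside 14.2%) and 1 lower (4.76%, beside 12.5%) without overlap. Hspa5, its main chaperone, read 6.39, 6.07, 6.86 and 7.02 and then 7.25, 7.71 and 7.23, a difference of 0.81 (SE 0.30, limma adjusted p = 0.299) with 24 h replicates 1 and 2 lowest, and 0.46 without them.

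Of 30 fatty acid oxidation genes tested, 2 were higher and 2 lower without overlap (6.67% each, below the 14.2% and 12.5% of all genes). Hadhb, a subunit of the trifunctional protein, was higher by 0.44 (SE 0.13) and Ppara, the receptor that drives the pathway, by 0.40 (SE 0.16). Acads, short-chain acyl-CoA dehydrogenase, read 6.90, 7.11, 6.94 and 7.06 and then 6.51, 5.97 and 6.30, a difference of -0.74 (SE 0.23, limma adjusted p = 0.182), with another probe set of opposite sign. Among 26 acute phase genes 6 were higher (23.1%, beside 14.2% of all genes) and 1 lower (3.85%, beside 12.5%) without overlap. Yet 17 of the 26 had a negative difference, and the median was -0.05 (-0.01 without 24 h replicates 1 and 2). Ahsg, the plasma protein fetuin-A, had the smallest p. It read 10.94, 11.14, 10.78 and 10.40 and then 10.53, 10.30 and 10.35, a difference of -0.42 (SE 0.13, limma adjusted p = 0.202) with overlapping arrays, and -0.20 without 24 h replicates 1 and 2. Fgb, a fibrinogen chain, was at 7.66, 7.29, 7.44 and 7.22 and then 8.03, 8.02 and 7.71 (0.52, SE 0.23, limma adjusted p = 0.458).

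Structural genes gave no call. Of 23 tested in the list of tubulins, actins and related genes, 12 had a positive and 11 a negative difference, around a median of 0.01. Without overlap 4 were lower (17.4%, beside 12.5% of all genes) and 0 higher (beside 14.2%), and Actb was among the 4. Actb, cytoplasmic beta-actin, read 5.34, 5.40, 5.42 and 5.52 at 24 h and 4.43, 4.09 and 4.34 at 48 h, a difference of -1.13 (SE 0.40) with a limma adjusted p of 0.275 over all arrays and 0.00176 with the 7 arrays alone. WT read 5.63 and 5.21 at 24 h and 4.89 and 5.73 at 48 h, which overlapped. The 3′ minus 5′ difference of the actin control probe sets was -0.01 to 0.59 at 24 h and 0.08 to 0.36 at 48 h. The summed signal of 24 stellate cell and matrix markers was 9.77 to 9.91 at 24 h and 9.96 to 10.11 at 48 h, higher without overlap, and Dcn, decorin, which binds collagen, was 0.69 higher (SE 0.28, limma adjusted p = 0.387) with overlapping arrays. The part of such cells in the results was not tested.

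The male-biased liver genes as a list, and some female-biased genes, followed the split of the 24 h arrays. Of 14 male-biased genes 0 passed, with a median of 0.51 over the 7 arrays and 0.09 without 24 h replicates 1 and 2. Without overlap 7 were higher (50%, beside 14.2% of all genes) and 0 lower (beside 12.5%). Hsd3b5 differed by 2.78 (SE 0.83, limma adjusted p = 0.175) and by 0.68 without those arrays. Cyp4a12b, a male fatty acid hydroxylase, read 6.06, 5.92, 8.29 and 9.11 and then 9.27, 9.51 and 9.45, a difference of 2.07 (SE 0.65) that became 0.71. Cyp2f2, another P450, gave 0.84 (SE 0.25) and then 0.42. In these genes replicates 1 and 2 were far lower. Replicates 3 and 4 were still below the 48 h arrays, by the mean differences of 0.68, 0.71 and 0.42 just given.

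Of 12 female-biased genes tested 0 passed, and 8 had a negative and 4 a positive difference. Their median was -0.08 (0.14 without 24 h replicates 1 and 2). Without overlap 1 was higher (8.33%, beside 14.2% of all genes) and 0 lower (beside 12.5%). The genes named next are among the 8. Cyp2b9 differed by -2.17 (SE 0.97, limma adjusted p = 0.487) with all arrays and by 0.09 without 24 h replicates 1 and 2, so its direction rested on them. Cyp17a1, a steroid hydroxylase, read 7.09, 7.82, 5.97 and 5.52 and then 5.58, 5.46 and 5.47, and Sult3a1, a sulfotransferase, 5.18, 3.53, 1.81 and 1.93 and then 1.55, 1.82 and 1.86. Their differences were -1.10 and -1.37 with all arrays and -0.24 and -0.13 without replicates 1 and 2. The labels give no sex.

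**Figure D5:**
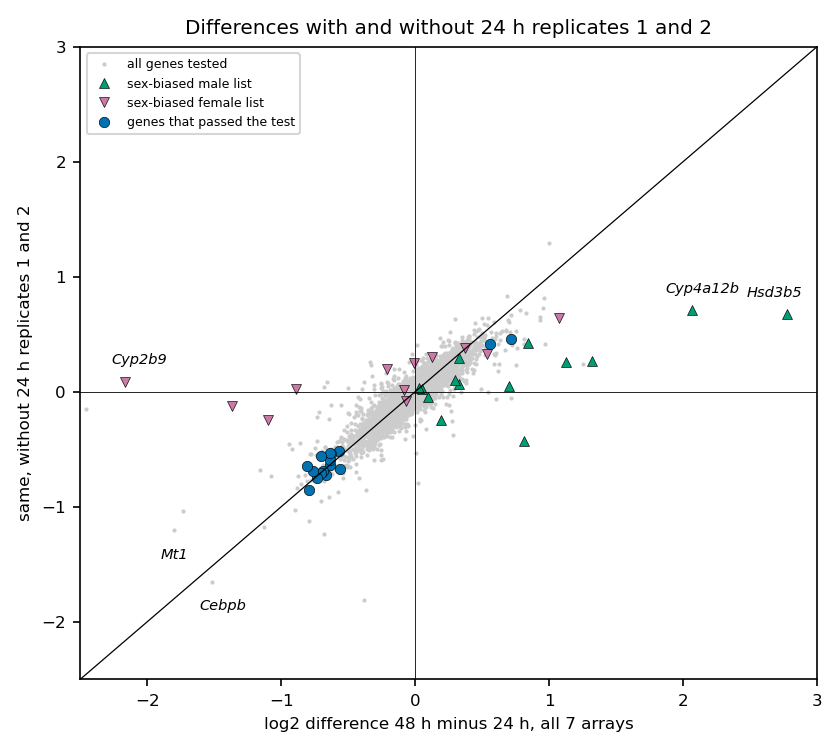
Log2 difference between Aag null 48 h and 24 h with all 7 arrays (horizontal axis) and without 24 h replicates 1 and 2 (vertical axis) for each gene tested (grey), male-biased genes (upward triangles), female-biased genes (downward triangles) and the 16 genes that passed (circles), with the line of equal values. The 14 falls lie near the line, while Hsd3b5 goes from 2.78 to 0.68 and Cyp2b9 from -2.17 to 0.09.

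Hepatocyte markers were bright at both times. The summed signal of 12 hepatocyte markers was 14.29 to 14.53 at 24 h and 14.25 to 14.31 at 48 h, which overlapped. Sums of 12 pancreatic acinar markers were 8.72 to 9.99 and 8.92 to 9.0, and those of 9 erythroid and platelet markers 8.74 to 9.45 and 9.05 to 9.20. None of the marker genes of 12 cell type lists passed the test between the times.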

How the data were processed

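The deposited values are 1 log2 signal per probe set and array, made by the authors; the unit was read from their range of 0.689 to 13.16, and the labels do not describe image reading, background handling or scaling. Of 12488 probe sets, 66 controls were left out and 10833 had a single gene symbol. Arrays were quantile normalized, since their medians spanned 0.215, over the limit of 0.1. The brightest probe set stood for each of 8251 genes, and a gene was tested if at least 2 arrays put it above their median (5487 genes). The limma package (3.58.1, R 4.3.3) fitted 1 mean per group over 28 arrays, with 18 residual degrees of freedom, moderated variances that follow the mean, and Benjamini-Hochberg adjustment. A gene passed at an adjusted p under 0.05. The number of arrays limits the precision. The comparison, the lists and the members were chosen with earlier results of these data known. Named genes were Mpg, up to 12 non-overlapping genes in each direction (those that passed first, then the smallest p), and up to 4 members of each list with the smallest p; Abca1, Cdkn1a, Dbp, Mdm2, Mgmt and Psme1 were added after their values were seen. Alternatives changed scaling, filter, probe set choice, replicate block, weights and the arrays fitted. The steps were tested on simulated data. Figures used Python 3.11.15 and matplotlib 3.10.9.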

Additional observations from a re-analysis of the deposited data

Results flagged for a closer look

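Among 96 genes with values given here, 4 had 1 array at 24 h far from the other 3, as chance gives in about 1 in 20 groups. Replicate 2 of Atp5e, a gene that fell, was the lowest of its group at 7.56, with the nearest array at 7.79, and it still lay above every 48 h array. Replicate 1 of Hint2, also among the falls, was the highest at 7.82, the nearest array being at 7.63. Replicate 1 of Ddit4, a stress-induced inhibitor of growth signalling, read 3.58 and the nearest 3.75. Replicate 2 of Baat, which joins bile acids to amino acids, read 7.92 and the nearest 7.72.

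In 4 of these genes every 48 h array lay on one side of every 24 h array in Aag null liver and on the other side in WT, and Dhcr7, Rpl41 and Rps19 were lower in Aag null liver and higher in WT. For Dhcr7, of cholesterol synthesis, WT read 3.47 and 3.16 at 24 h and 3.71 and 3.51 at 48 h. The Aag difference minus the WT difference was -1.01 (limma unadjusted p = 0.0141). For Rpl41, a ribosomal protein gene, WT read 10.99 and 10.74 and then 11.33 and 11.10, and the difference between the genotypes was -0.80 (limma unadjusted p = 0.00159). For Rps19, another ribosomal protein gene, Aag null liver read 5.94, 5.78, 6.23 and 6.01 and then 5.52, 5.78 and 5.63, with replicate 2 of both times nearly level, and WT 6.00 and 5.68 and then 6.06 and 6.16, a difference between the genotypes of -0.62 (limma unadjusted p = 0.0946). Reg2, a secreted lectin of the pancreas, ran the other way. It read 3.55, 3.87, 3.55 and 3.77 and then 4.04, 3.95 and 4.13 in Aag null liver, and 3.47 and 3.67 and then 3.36 and 3.25 in WT, a difference of 0.62 (limma unadjusted p = 0.346), with another of its probe sets of opposite sign. Most signals of Dhcr7 and Reg2 were dim, lying below the array medians before scaling (4.108 to 4.165 in these Aag null arrays). None of the 4 genes passed after adjustment over all genes, with a limma adjusted p of 1.0 for each.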

How the results depend on the processing

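The 16 genes of Aag null liver kept their sign in all 21 alternatives that gave them a value, but the number of genes that passed did not stay. It was 3 with the values as deposited and 3 with median centring, all lower, so the higher share went from 12.5% to 0%. It was 9 without the brightness filter, 19 with the filter set within the groups compared, 14 with the mean of a gene's probe sets, 19 with each probe set kept and 18 without the variance trend. It was 975 with array weights (396 higher, 40.6%), 512 with only the groups compared and 101 with treated arrays only. Without the female-typical arrays, or with that pattern as a term, it was 0. Added after seeing the data, the groups compared without 24 h replicates 1 and 2 gave 146 and the treated arrays without them 0. Leaving out 1 array gave 0 to 10. With the replicate number as a block 1 gene passed (lower, none of the 16); same-numbered arrays did not deviate together (correlations of -0.24 to -0.12 in Aag and -0.36 in WT), so the numbers did not pair the samples. These numbers are those of the titles, while GEO's descriptions call 48 h replicates 2 and 3 replicate 1 too; the crossed WT pairing gave 0. In WT, where 1 gene passed, the count was 0 as deposited, with median centring and with the block, 2 with only the groups compared (Fkbp5 not among them), 2 with treated arrays only (Fkbp5 among them), and 0 to 1 with 1 array left out, never Fkbp5. The filter within groups was not run for WT, which has 2 arrays a time. The genotype difference gave 0 genes in every alternative run. The causes were not tested.

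Among the 96 genes, 3 changed sign under some setting. Mdm2 was 0.00324 as deposited. Cdkn1a was 0.0449 with the mean of probe sets, 0.0231 with array weights, 0.0325 in the 3 fits without 24 h replicates 1 and 2, and -0.0506 to 0.0346 with 1 array left out. Cyp2b9 was 0.0885 in those 3 fits and 0.0399 with the female-typical term.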

Other observations

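Coagulation and complement genes, which hepatocytes make for the plasma, were more often higher than lower in Aag null liver at 48 h, though 0 of 24 tested passed in limma's fit of all arrays. Without overlap between the times, 7 were higher and 1 lower, which is 29.2% and 4.17% of the list beside 14.2% and 12.5% of all genes. The median was 0.07 (0.11 without 24 h replicates 1 and 2). Klkb1, which encodes plasma prekallikrein, read 4.23, 4.07, 4.53 and 4.41 at 24 h and 4.70, 5.03 and 4.82 at 48 h, a difference of 0.54 (SE 0.18, limma adjusted p = 0.25) beside 0.53 in WT. Mbl1, a mannose-binding lectin, and Serpind1, a thrombin inhibitor, were each higher by 0.39, with limma adjusted p of 0.452 and 0.513. Without 24 h replicates 1 and 2, Mbl1 was 0.24. C9, of the membrane attack complex, read 7.69, 6.71, 9.22 and 9.23 and then 9.66, 9.55 and 9.19. Its difference was 1.25 with all 7 arrays and 0.24 without 24 h replicates 1 and 2, which were low.

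Bile acid genes had 5 of 16 tested members higher (31.2%, beside 14.2% of all genes) and 0 lower (beside 12.5%) without overlap over all 7 arrays, and the count of 0 lower did not hold against 24 h replicates 3 and 4 alone. Baat was among the 5 (0.32, SE 0.12). Cyp7b1, the oxysterol hydroxylase of the alternative pathway, differed by 1.32 with all arrays and by 0.27 without 24 h replicates 1 and 2. Fatty acid synthesis genes had 0 of 15 higher and 2 lower (13.3%) without overlap, around a median of -0.17 (-0.08 without those 2 arrays). Pcx, pyruvate carboxylase, read 6.75, 6.79, 6.77 and 6.72 at 24 h and 6.41, 5.79 and 6.11 at 48 h. Its difference was -0.66 (SE 0.20, limma adjusted p = 0.182) beside -0.69 in WT, with another probe set of opposite sign. Tfr2, a transferrin sensor of hepatocytes, differed by -0.36 (SE 0.14) and Sult1a1, a phenol sulfotransferase, by -0.78 (SE 0.26), both lower in every 48 h array. These lists held 0 calls in the fit of all arrays.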
